A study of Equus caballus with 4 samples.

Results

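The RNF genes are a group of genes named for the RING finger, a zinc-binding fold found in a large class of ubiquitin ligases. They were taken here as every gene whose symbol on the array is RNF followed by a number, with or without a final letter. This gave 70 genes and 113 probes out of 24998 names and 43603 probes. Probes entered the test if at least 1 dye stood well above background on each of the 4 arrays. These were 82 probes of 49 RNF genes, among 24673 probes of 13979 names.

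The cells were equine satellite cells, the stem cells of skeletal muscle, isolated from m. semitendinosus and driven to differentiate in culture. In the HMB-treated group, cells were given 50 µM β-hydroxy-β-methylbutyrate (HMB), a metabolite of leucine, for 24 h up to day 3 of differentiation, and 3 mM hydrogen peroxide (H2O2) was added for the final 1 h. Control cells had H2O2 without HMB, so both groups were under oxidative stress. The comparison is of HMB added to H2O2 against H2O2, with no group free of H2O2. Each of 4 arrays carried HMB RNA in Cy5 and control RNA in Cy3. The array gave 1 log2 ratio of HMB over control per probe, and above 0 means a higher level with HMB. Dyes were not swapped, so a dye effect and an HMB effect cannot be told apart. The labels number the HMB cultures as biological replicates 1 to 4 but number the control alike on all arrays. The muscle came from young stallions, and by the methods 1 culture was chosen for its viability and fusion, so the 4 replicates need not be 4 horses and the p-values cover only the spread between these arrays. In bulk RNA of a culture, fewer cells of a type and less RNA per cell cannot be told apart.

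Ubiquitin is passed from an E1 enzyme to an E2 enzyme, and a ligase, the E3, then brings the loaded E2 to a protein that is to be marked. In most RNF proteins the RING finger binds the E2. In the RING-between-RING (RBR) ligases the protein takes up the ubiquitin itself before passing it on. In muscle, ubiquitin ligases are known for the turnover of contractile proteins, while many RNF ligases act in antiviral signalling, DNA repair or the endoplasmic reticulum (ER).

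The probes behind the strongest and the most divided results are shown first, as copied from the array files, 5′ to 3′ in the sense of the transcript, with positions on EquCab1. Capitals mark the stretch shared by both probes of a pair. A span longer than the 60 bases of a probe means that the probe runs across an intron in the genome.

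The probe of RNF24, the gene with the highest mean, lies at chr22:18954937-18955755 on the plus strand.
RNF24: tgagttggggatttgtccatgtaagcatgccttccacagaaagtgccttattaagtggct
The 5 probes of RNF114 are steps of a few bases along 1 window at chr22:38157375-38158931 on the plus strand, so they are not independent. The first and the last share 55 bases.
RNF114, first probe: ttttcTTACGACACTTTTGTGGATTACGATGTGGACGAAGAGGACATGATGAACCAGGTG
RNF114, last probe: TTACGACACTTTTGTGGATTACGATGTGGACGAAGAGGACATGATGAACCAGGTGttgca
RNF138 and RNF125 lie on chromosome 8, plus strand. The RNF138 probes, at chr8:46228482-46230179 and chr8:46230160-46230219, share 20 bases, and the RNF125 probe is at chr8:46165146-46165205.
RNF138, first probe: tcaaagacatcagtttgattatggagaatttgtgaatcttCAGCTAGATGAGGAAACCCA
RNF138, second probe: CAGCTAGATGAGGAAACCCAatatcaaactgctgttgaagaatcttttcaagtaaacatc
RNF125: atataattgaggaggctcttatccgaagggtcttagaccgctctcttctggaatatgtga
The probes of RNF40, at chr13:6352520-6352579 and chr13:6354383-6354442 on the minus strand, gave different answers and share no stretch.
RNF40, first probe: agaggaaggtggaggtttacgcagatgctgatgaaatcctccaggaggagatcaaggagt
RNF40, second probe: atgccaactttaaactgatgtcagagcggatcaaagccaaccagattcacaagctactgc
RNF4, which was lower with HMB, also had 5 stepped probes, on a sequence with no chromosome in EquCab1. The outer pair share 56 bases.
RNF4, first probe: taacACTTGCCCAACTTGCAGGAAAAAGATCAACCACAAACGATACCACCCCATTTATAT
RNF4, last probe: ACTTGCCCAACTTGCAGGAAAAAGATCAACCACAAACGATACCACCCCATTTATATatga

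Of the 49 RNF genes tested, 9 were higher and 7 were lower with HMB at an adjusted p of 0.05 and a fold change (FC) of 1.3 (limma, Benjamini-Hochberg over all names), which is 32.7%. Over all 13979 names the share was 28.9%, with 12.5% higher and 16.4% lower, so the RNF genes were called about as often as the array as a whole. Probe by probe, 15 of the 82 RNF probes were higher and 14 lower (35.4%), where all tested probes gave 28.6%, with 12.1% higher and 16.4% lower. The higher genes were RNF24, RNF114, RNF138, RNF13, RNF40, RNF183, RNF125, RNF19B and RNF144B. The lower genes were RNF103, RNF11, RNF34, RNF4, RNF6, RNF217 and RNF2. For 4 of the 9 rises, RNF24, RNF125, RNF144B and the first probe of RNF40, the control dye was not well above background on all arrays, so they passed the filter through the HMB dye. With both dyes required these 4 genes were not tested, and of 44 RNF genes 5 were higher and 7 lower. Of 12697 names tested in that run, 1502 were higher and 1784 lower (25.9% called), so the RNF genes were again called about as often.

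The median log2 ratio of the 49 genes was −0.01, with the middle 50% from −0.22 to 0.27, beside −0.06 for all names. On single arrays the RNF median ran from −0.03 to 0.01. The ratios of the 49 genes correlated between arrays with r from 0.83 to 0.92, across genes, which are not independent replicates. The remaining 33 genes lay between −0.33 and 0.37, and 14 of them passed the adjusted p but not the FC. Just inside the FC stood RNF2 at −0.38 (SD 0.10, n = 4), and just outside it RNF31 at 0.37 (SD 0.15), RNF186 at 0.35 (SD 0.20), RNF149 at 0.34 (SD 0.07) and RNF25 at −0.33 (SD 0.21).

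**Figure D1:**
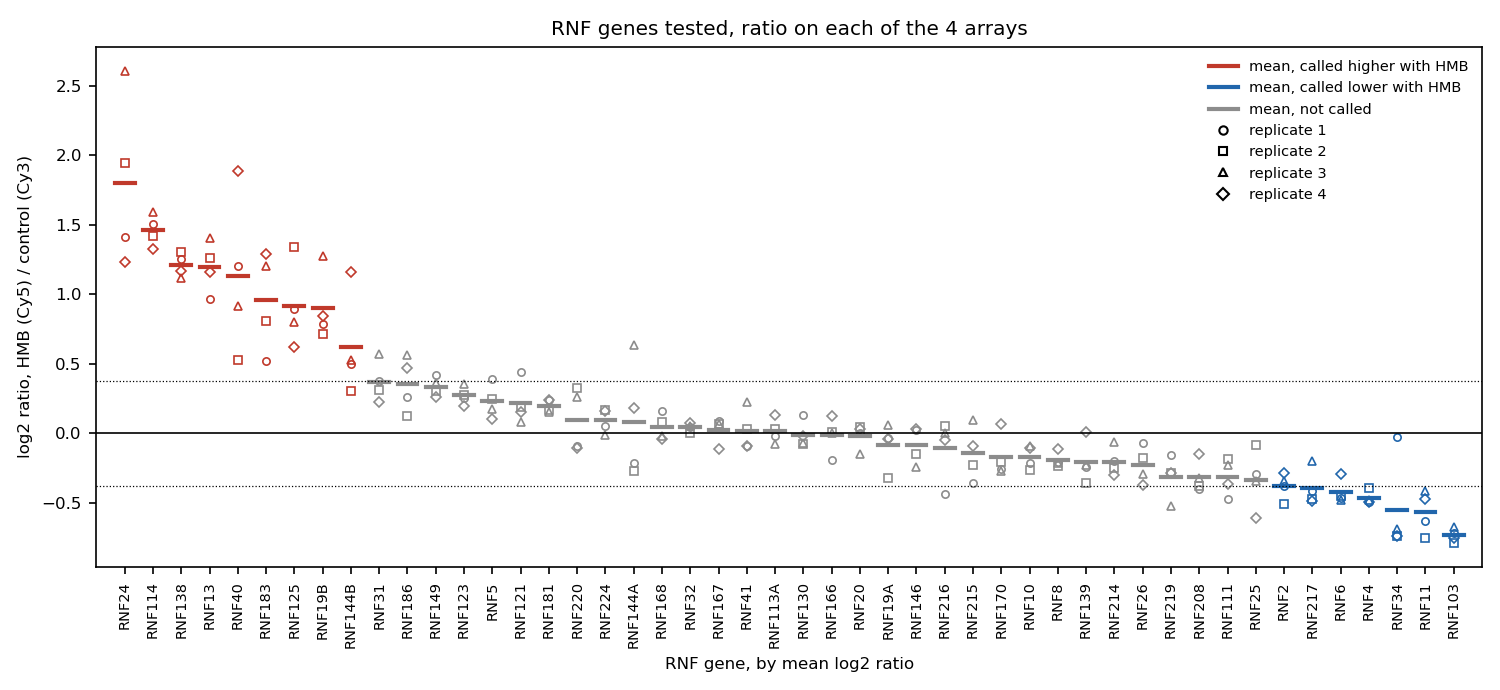
Log2 ratio of HMB over control (vertical axis) for 48 of the RNF genes tested, in order of their mean. Points are the 4 arrays, bars the means and dotted lines an FC of 1.3; the 9 called rises stand apart from the other genes, from 0.62 to 1.80, while the 7 called falls, from −0.38 to −0.74, run on from genes that were not called.

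How many genes stood on each side differed between the normalizations and tests. Arrays centred on their median without the scanner software's lowess curve gave 13 RNF genes higher and 3 lower. The median of all names moved up by 0.12 on the log2 scale. Single genes moved either way, with RNF24 going from 1.80 to 1.56 and RNF13 from 1.20 to 1.36. Scaled to the spike-in RNA, the median of all names moved by −0.49, and 8 RNF genes were higher and 32 lower. Among called names the share of higher calls was 43.2% as reported, 60.7% with median centring, 57.1% with normexp background correction and loess, 53.8% with a test against the FC itself (treat) and 6.3% with spike-in scaling. Directions below are relative to the lowess centring. The 9 rises and 7 falls kept their sign under each of these normalizations, though not always their call.

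**Figure D2:**
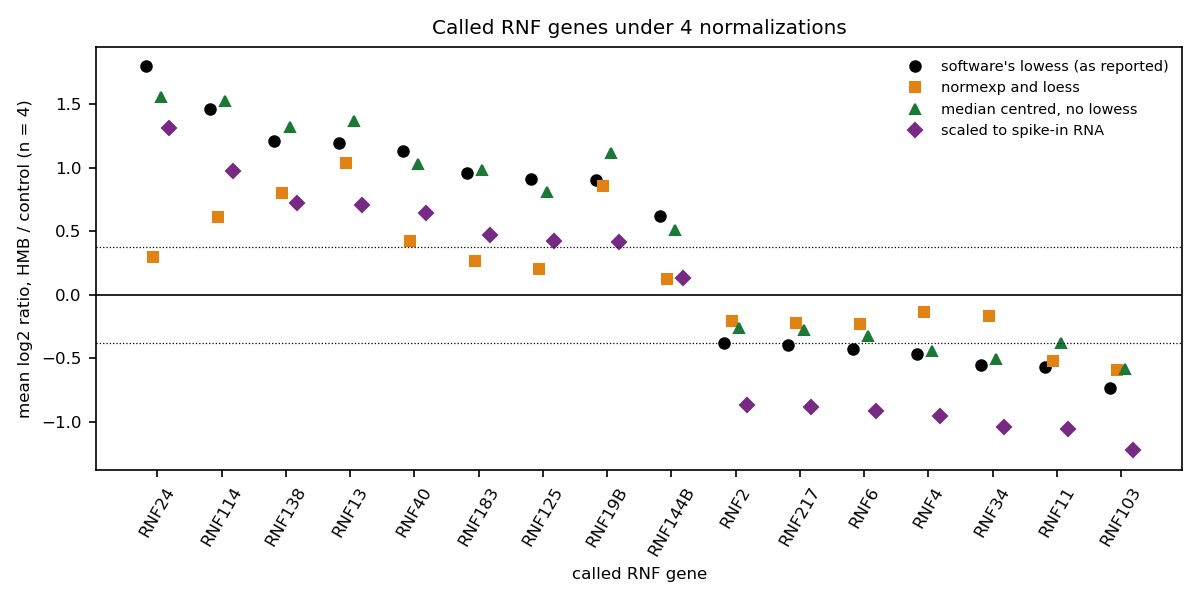
Mean log2 ratio of HMB over control (vertical axis, n = 4 arrays) of the 16 called RNF genes under 4 normalizations. Dotted lines mark an FC of 1.3. RNF24 was 1.80 with lowess and 0.30 with normexp and loess, while RNF114, RNF138, RNF13, RNF19B and RNF40 stayed above the upper line under all 4. RNF40, at 0.42 with normexp and loess, was not called there.

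RNF114, RNF125, RNF138 and RNF166 are relatives that carry a RING finger, further zinc fingers and a ubiquitin-interacting motif. RNF114 and RNF138, with both dyes well above background, were called higher with HMB, and RNF166 was near 0. RNF125 was also called higher, but its probe passed the filter through the HMB dye. RNF114, a ligase known in NF-κB and antiviral signalling, had log2 ratios of 1.51, 1.42, 1.59 and 1.32 on replicates 1 to 4. The 4 arrays were close together, with a mean of 1.46 (SD 0.12, FC 2.75, adjusted p = 2.86e-05), and its 5 probes gave 1.297 to 1.57, each of them called. RNF138, which promotes the resection of broken DNA ends, had 1.25, 1.3003, 1.12 and 1.17, with a mean of 1.21 (SD 0.08, FC 2.31, adjusted p = 4.33e-05). Its 2 probes, 1.26 and 1.16, were both called.

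RNF125 marks the cytosolic RNA sensors RIG-I and MDA5 for degradation. Its ratios were 0.89, 1.34, 0.80 and 0.62, with a mean of 0.91 (SD 0.31, FC 1.88, adjusted p = 0.00162). All 4 were above 0, but the control channel was well above background on 3 of the 4 arrays. The probe passed the filter through the HMB dye, so the size is uncertain and the direction is not independent of the filter. With normexp the mean was 0.21. RNF166 had −0.19, 0.01, 0.00 and 0.12, on both sides of 0. Within an array the difference from RNF166 was 1.48 (SD 0.22) for RNF114 and 1.23 (SD 0.18) for RNF138, above 0 on 4 of 4 arrays each. For RNF125 it was 0.93 (SD 0.36), also above 0 on 4 of 4 arrays. That sign is not independent of the filter, so nothing is read from the RNF125 difference. With 4 arrays an exact two-sided sign-flip permutation test cannot go below p = 0.125, which is the value for each of the 3 (0.141 after adjustment over the 9 differences between relatives, chosen after the values were seen).

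RNF125 and RNF138 are also neighbours. Their probes start 63.3 kb apart. Of the other names within 300 kb, 2 were tested. TRAPPC8 was at −0.02 and not called, and the 4 probes of GAREM, from −1.55 to −1.35, were all called lower. The rises were not shared by the other tested names of that stretch.

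In the list of innate immune ligases, 13 of 16 genes were on the array and 10 were tested, of which RNF114, RNF125 and RNF19B were higher and RNF11 was lower, where 12.5% of all names were higher and 16.4% lower. The median of the 10 was 0.11, beside −0.06 for all names, and nothing particular to the list is read from these few genes. RNF19B, an RBR ligase of natural killer cells and macrophages, had ratios of 0.78, 0.71, 1.27 and 0.84, with a mean of 0.90 (SD 0.25, FC 1.87, adjusted p = 0.00096). Its nearest relative, RNF19A, had −0.03, −0.32, 0.06 and −0.04. The difference between them was 0.99 (SD 0.18) and above 0 on 4 of 4 arrays (p = 0.125, the same exact test and the smallest it allows).

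RNF31, the catalytic subunit of the complex that builds linear ubiquitin chains, was at 0.37, under the FC. RNF5 and RNF26, ER ligases that act on the DNA-sensing adaptor STING, were at 0.23 and −0.23, and RNF216 and RNF25 at −0.11 and −0.33. None of these was called.

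RNF11 works with the deubiquitinase A20 to limit NF-κB signalling and also takes part in TGF-β signalling. It had −0.63, −0.76, −0.42 and −0.48, with a mean of −0.57 (SD 0.15, FC 1.48, adjusted p = 0.00197). All 4 arrays were below 0 and both probes were called, though these start 40 bases apart and overlap. Leaving out any 1 replicate did not end the call, which was lost with treat (adjusted p = 0.164) and with median centring (log2 ratio −0.38).

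**Figure D3:**
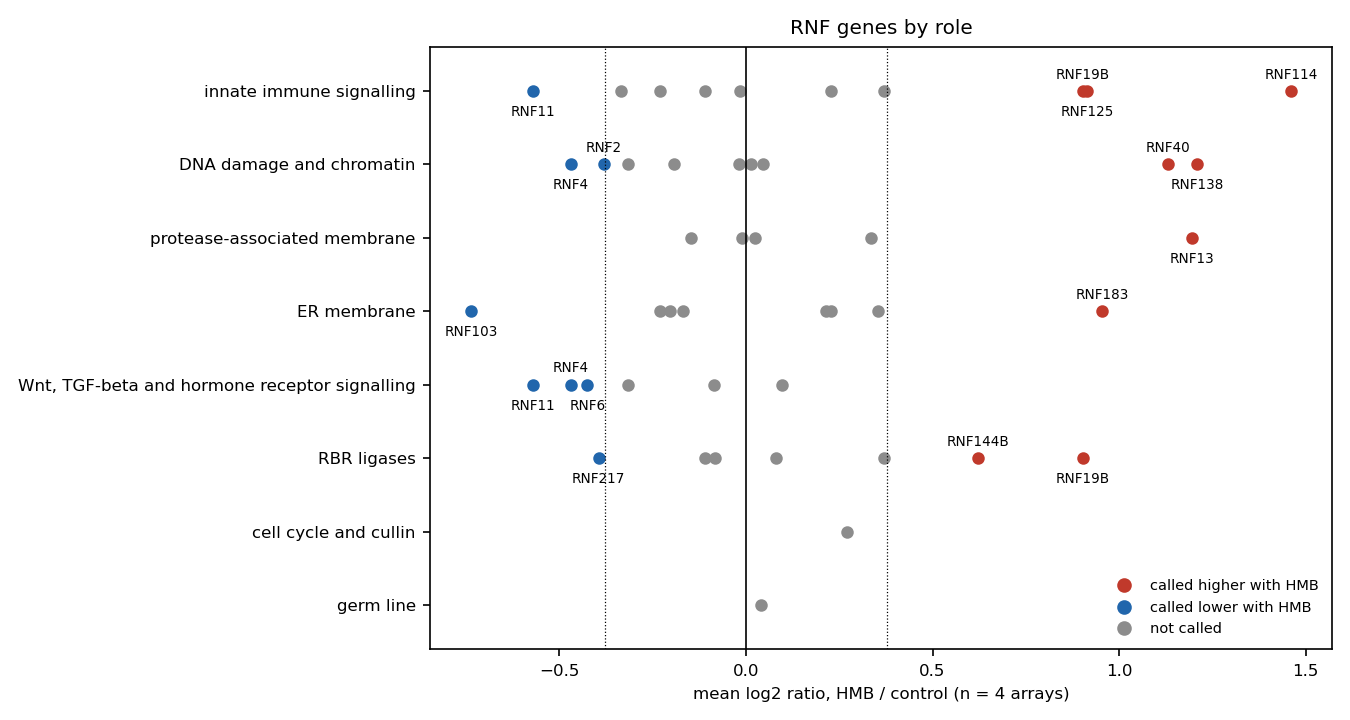
Mean log2 ratio of HMB over control (horizontal axis, n = 4 arrays) of each tested RNF gene, by role list; a gene may be in several lists. Dotted lines mark an FC of 1.3; the innate immune and RBR lists reach 1.46 and 0.90 on the higher side, and the list for Wnt, TGF-beta and hormone receptor signalling has 3 genes lower and 0 higher, where 16.4% of all names were lower.

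Of 7 tested RBR ligases, RNF19B and RNF144B were higher and RNF217 was lower (28.9% of all names were called), with a median of 0.08. RNF144B, a p53-induced ligase that acts in cell death, had 0.49, 0.30, 0.53 and 1.16, with a mean of 0.62 (SD 0.37, FC 1.54, adjusted p = 0.0129). The control channel was well above background on 3 of 4 arrays, and 2 more probes that overlap this one were too dim to test. The tested probe thus passed the filter through the HMB dye, and its direction is not independent of the filter. The difference of RNF144B from RNF144A, 0.54 (SD 0.46), was above 0 on 3 of 4 arrays (p = 0.25, exact sign-flip permutation test). It carries the same limit, and nothing is read from it. RNF144A itself ran from −0.27 to 0.63.

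RNF217, known as a ligase of the iron exporter ferroportin, had −0.42, −0.47, −0.20 and −0.49, with a mean of −0.39 (SD 0.14, FC 1.31, adjusted p = 0.00664), and both probes were called. It stands close to the FC, and without replicate 2 or replicate 4 the mean was −0.37 or −0.36 and no longer called.

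Of 9 tested genes for DNA damage and chromatin, RNF138 and RNF40 were higher and RNF4 and RNF2 were lower (28.9% of all names were called), with a median of −0.02. RNF4, a ligase for SUMO-tagged proteins, had −0.50, −0.40, −0.48 and −0.50. The arrays lay close together at a mean of −0.47 (SD 0.05, FC 1.38, adjusted p = 0.00158), and the 5 stepped probes, from −0.52 to −0.43, were all called. With normexp and loess RNF4 was at −0.14 and not called.

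RNF2, or RING1B, is the catalytic ligase of Polycomb repressive complex 1 and marks histone H2A. Its ratios were −0.38, −0.51, −0.35 and −0.29, with a mean of −0.38 (SD 0.10, FC 1.302, adjusted p = 0.00512). All were below 0, but 1 of 2 tested probes was called. These probes were nearly alike, at −0.384 and −0.377, on either side of the FC cutoff (0.3785 on the log2 scale). The call of the gene was lost under 7 of 15 alternatives. Among these were normexp and loess (−0.20), median centring (−0.26) and the run without replicate 2 (−0.34). The remaining RNF2 probe was too dim to test. The Polycomb partner RING1 was at 0.16 and not called. RNF8 and RNF168, which ubiquitinate chromatin around DNA breaks, were at −0.19 and 0.05.

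RNF40 and RNF20 together ubiquitinate histone H2B. RNF20 was at −0.02 (SD 0.09). RNF40 had a mean of 1.13 (SD 0.57, FC 2.19, adjusted p = 0.00545) from 1.21, 0.53, 0.91 and 1.88 on the 4 arrays, but this mean joined 2 probes that did not agree. The first gave 2.65, 1.45, 1.96 and 4.21, with a mean of 2.57 (SD 1.20, limma adjusted p = 0.00374), and the second gave −0.24, −0.40, −0.14 and −0.45, with a mean of −0.31 (SD 0.14, not called).

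The processed signals show where the first RNF40 probe was unsteady. Its HMB signal was 352, 36.4, 79.2 and 371 on replicates 1 to 4, and its control signal was 56.0, 13.3, 20.3 and 20.1, well above background on 1 array. The second probe had HMB signals of 45.4, 38.6, 38.7 and 34.5 and control signals of 53.5, 51.0, 42.6 and 47.0. The HMB signal of the first probe thus varied 10.2-fold between arrays, more than its mean ratio of 5.94-fold, whereas the second was steady in both channels. The level of RNF40 cannot be settled from these 2 probes. The methods' t-test did not call the gene (adjusted p = 0.0754).

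**Figure D4:**
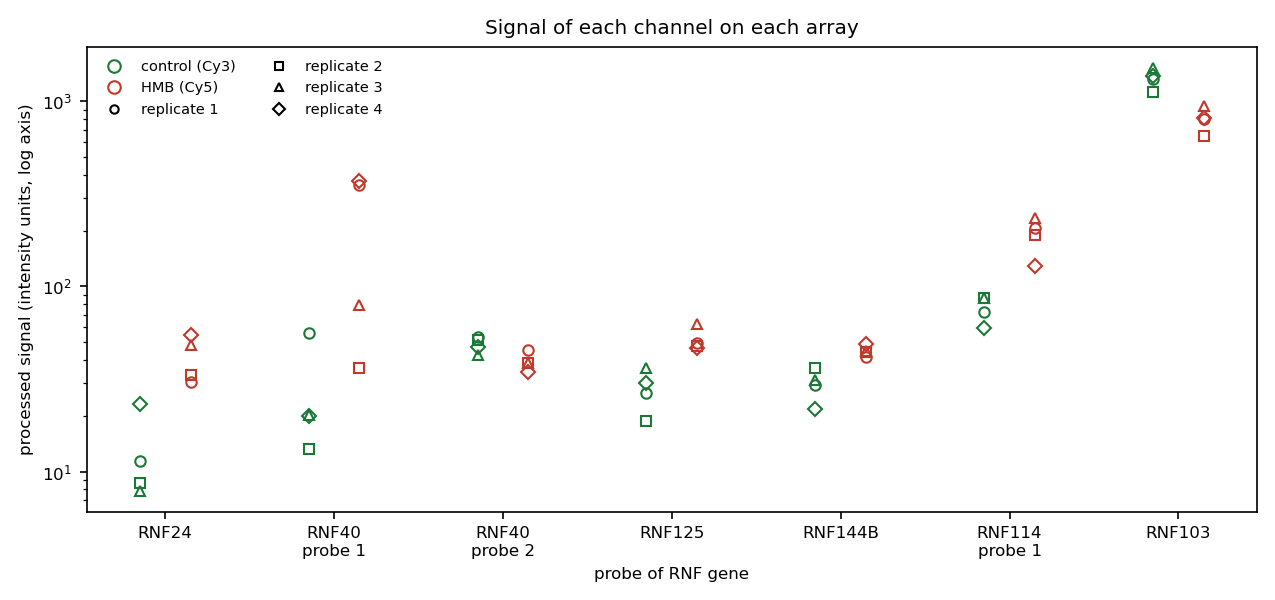
Processed signal (vertical log axis, intensity units) of 7 probes, control in Cy3 (green) and HMB in Cy5 (red), with 1 symbol per array. Channels are to be compared within a probe; the HMB signal of the first RNF40 probe runs from 36.4 to 371, and RNF103 is higher in the control on every array.

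Among membrane ligases with a protease-associated domain, RNF13 was the 1 gene called of 5 tested, beside 28.9% of all names. RNF13 sits in endosomes and lysosomes and takes part in the ER stress response. Its ratios were 0.97, 1.26, 1.40 and 1.16, with a mean of 1.20 (SD 0.18, FC 2.29, adjusted p = 0.000143), and its 2 probes, 797 bases apart, gave 1.09 and 1.302. Within an array it exceeded RNF130 by 1.21 (SD 0.27), RNF167 by 1.17 (SD 0.20) and RNF149 by 0.86 (SD 0.21), on 4 of 4 arrays each, with p = 0.125, the smallest the exact permutation test allows. RNF130, RNF167 and RNF215, at −0.01, 0.03 and −0.15, were not called.

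Of 8 tested ligases of the ER membrane, RNF183 was higher and RNF103 was lower, beside 12.5% and 16.4% of all names. RNF183, linked to the ER stress response, had 0.52, 0.81, 1.20 and 1.29, with a mean of 0.95 (SD 0.36, FC 1.94, adjusted p = 0.00218). The 4 arrays differed by more than an FC of 1.3 among themselves, all above 0, and with normexp and loess the mean was 0.27. RNF103, which takes part in ER-associated degradation, gave the largest fall of the group: −0.72, −0.79, −0.68 and −0.76, with a mean of −0.74 (SD 0.05, FC 1.67, adjusted p = 0.000262). It was called under every alternative run. The other tested members were RNF186 at 0.35, RNF5 at 0.23, RNF121 at 0.21, RNF170 at −0.17, RNF139 at −0.20 and RNF26 at −0.23, none of them called.

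RNF4, RNF6 and RNF11 were lower among 6 tested ligases of Wnt, TGF-beta and hormone receptor signalling, and 0 were higher, with a median of −0.37, where 16.4% of all names were lower and 12.5% higher. All 3 calls were lost with treat, and those of RNF6 (−0.32) and RNF11 (−0.38) with median centring. RNF6, a ligase of the androgen receptor, had −0.47, −0.45, −0.48 and −0.30, with a mean of −0.43 (SD 0.09, FC 1.34, adjusted p = 0.00312). It was below 0 on all arrays, and 1 of its 2 probes was called, at −0.51, with the other at −0.34. RNF111, a ligase of TGF-β signalling, was at −0.32, RNF146, which acts on the Wnt regulator axin, at −0.09, and RNF220 at 0.10. These 3 were not called.

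RNF24 and RNF34 belonged to no list. RNF24, a membrane RING protein known to bind TRPC channels, had the highest mean of the RNF genes. Its ratios were 1.41, 1.94, 2.61 and 1.23, with a mean of 1.80 (SD 0.62, FC 3.48, adjusted p = 0.00117). Its control signals of 11.4, 8.65, 7.89 and 23.2 were well above background on 1 array, against HMB signals of 30.3, 33.3, 48.1 and 54.5. All 4 arrays were higher with HMB, but the probe passed the filter through the HMB dye, so this direction is not independent of the filter. The size rests on the dim control channel, and with normexp and loess it was 0.30 and not called.

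RNF34 inhibits caspases and marks the coactivator PGC-1α for degradation. It had −0.031 on replicate 1 and −0.74, −0.69 and −0.74 on replicates 2, 3 and 4, so 1 array was near 0 and the others were alike. The mean was −0.55 (SD 0.35, FC 1.46, adjusted p = 0.016). Without replicate 1 it was −0.72, and without replicate 2, 3 or 4 it was −0.49, −0.50 or −0.49 and not called.

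For 17 of the RNF genes reported here more than 1 probe was tested. In 14 of these all probes of the gene had the same call, and in RNF2, RNF6 and RNF40 only some were called. The RNF2 probes, at −0.384 and −0.377, differed little and fell on either side of the FC. RNF10, with 8 probes, showed a smaller step: 3 neighbouring probes gave −0.29 to −0.21, and 5 stepped probes 21.4 kb away gave −0.14 to −0.09.

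**Figure D5:**
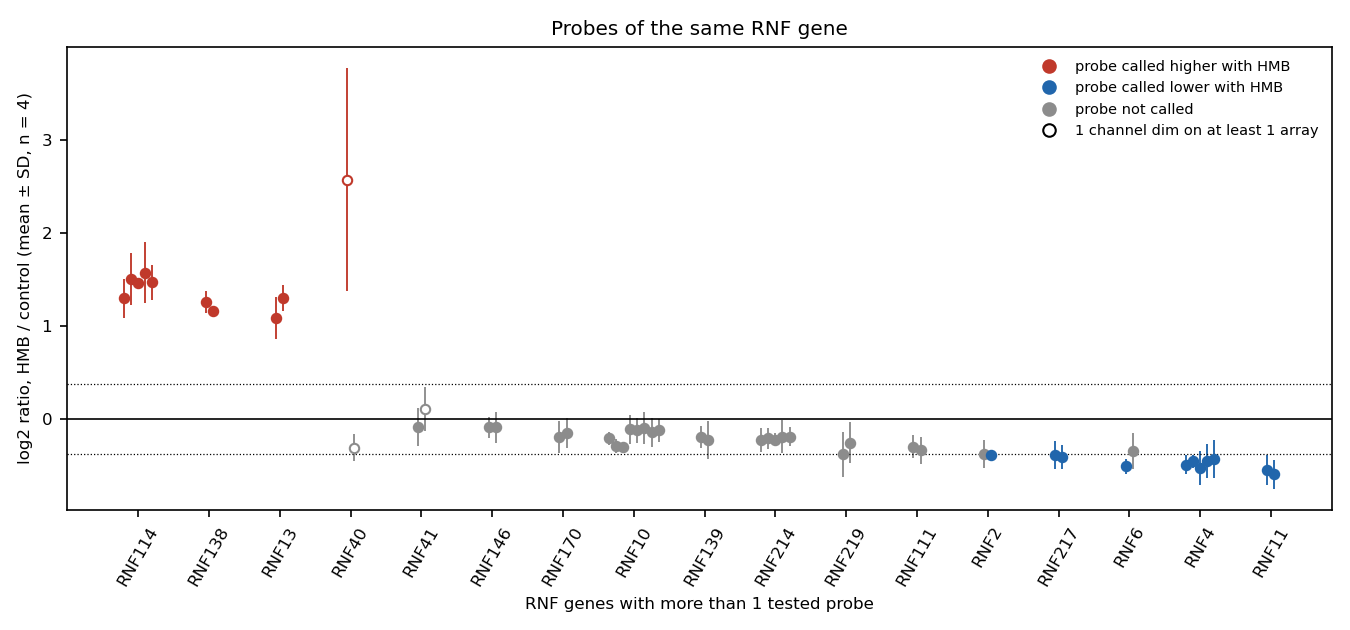
Log2 ratio of HMB over control (vertical axis) of each tested probe, as mean ± SD over 4 arrays, for 17 RNF genes with more than 1 tested probe. Open symbols have a channel not well above background on at least 1 array and dotted lines mark an FC of 1.3. The RNF40 probes stand at 2.57 and −0.31. Probes of the other genes plotted differ less, as in RNF114 (1.297 to 1.57) and RNF10 (−0.29 to −0.09). The RNF41 probes lie on either side of 0, at −0.08 and 0.11.

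Not enough signal was seen for the other 21 RNF genes, and for 17 of them no probe was well above background in either dye on any array. The untested genes included all 5 of the brain and heart list (RNF112, RNF157, RNF165, RNF182 and RNF207) and 3 of the 4 germ line genes on the array (RNF17, RNF148 and RNF151). RNF32, the tested germ line gene, was at 0.04. RNF122, the closest relative of RNF24, was above background on 3 control and 2 HMB channels and was not tested.

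Of 11 E1 and E2 enzymes tested, UBE2L6 and UBA6 were higher and 0 were lower, where 12.5% of all names were higher and 16.4% lower. UBE2L6, an E2 that carries the ubiquitin-like ISG15, had 3.14, 2.94, 2.93 and 2.61, a mean of 2.90 (SD 0.22, FC 7.48, adjusted p = 5.16e-06). UBA6, a second E1 for ubiquitin, had a mean of 0.63 (SD 0.14, FC 1.55). The main E1, UBA1, was at −0.09, and UBE2D3, a common E2 of RING ligases, at −0.01, neither of them called. UBE2B, which works with RNF20 and RNF40 on histone H2B, was at −0.34, under the FC.

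Among 14 tested proteins that RNF ligases act on or with, the RNA sensors IFIH1 (MDA5) and DDX58 (RIG-I) and the deubiquitinase CYLD were higher, and TP53BP1 was lower, beside the same shares of all names. IFIH1 had 5.24, 5.72, 5.50 and 4.63, with a mean of 5.27 (SD 0.47, FC 38.7, adjusted p = 5.08e-06). DDX58 had 3.71, 3.83, 3.88 and 3.27, with a mean of 3.67 (SD 0.28, FC 12.8, adjusted p = 4.26e-06). Both are known targets of RNF125. CYLD, which takes apart linear and lysine-63-linked chains, had a mean of 0.84 (SD 0.14). TP53BP1, recruited to breaks after RNF8 and RNF168 have acted, had a mean of −0.51 (SD 0.09). MAVS, TMEM173 (STING), SHARPIN, RING1, WAC and AXIN1, between −0.12 and 0.28, were not called. Nor were TNKS at 0.13, FAM105B at −0.01, ZNRF3 at −0.30 and MDC1 at −0.32.

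Markers of cell identity moved on the same arrays. Of 7 differentiating muscle markers on the array, all above background in both dyes, 5 were lower (MYF5, MYH3, DES, ACTA1 and CKM, at −1.63 to −0.93), while MYOD1 and MYOG were at 0.10 and 0.03. Their summed signal was 166100 to 186900 in control and 63220 to 100500 in HMB channels. Of 4 fibroblast markers 3 were higher, with summed signals of 182700 to 212100 in control and 209000 to 319800 with HMB. Of 4 leukocyte markers, CD68 was higher at 0.88, CD14 was at 0.20, and CD3E and ITGAM were not above background on any array, with sums of 3667 to 4406 and 4146 to 6184. The 4 endothelial markers were not above background on any array, nor was FABP4 of the 2 adipocyte markers. The part of these shifts in the RNF ratios was not tested.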

How the data were processed

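RNA of HMB-treated and control equine satellite cells was compared on 4 two-colour arrays with probes of 60 bases, all on 1 slide. The authors deposited scanner files whose intensity columns give each spot's background-subtracted signal and its signal after lowess normalization within the array. The deposited log10 ratios of Cy5 over Cy3 were written by Feature Extraction (version 10.10.1.1 per the file headers). Log2 ratios were computed here from these deposited log10 values by a change of base. Depth is not defined for arrays, and their number, 4, limits the precision.

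Spots of controls and flagged spots (13 to 35 an array, 0 of them on RNF probes) were left out. Of non-control spots, 57.6% to 60.6% were well above background in Cy3 and 55.2% to 61.8% in Cy5, and 0 were saturated. Probes needed 1 dye well above background on all 4 arrays and at least 3 ratios, and were averaged by gene name. Ratios were tested against 0 with limma 3.58.1 in R 4.3.3 (linear model and empirical Bayes, Benjamini-Hochberg over all names), and a call needed an adjusted p up to 0.05 with an FC of 1.3 or more. Alternatives covered the test, background correction, normalization, spike-in scaling, probe GC content, filters, the brightest probe and each replicate left out.

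The rule named every called RNF gene, with values by array, genes whose probes were called only in part, and called partner genes; genes not called were named by role. The members and the 9 role, 2 partner and marker lists were chosen with earlier results of these data known, and the lists were written from general knowledge. Medians of lists are descriptions. RNF113A has a probe that shares a stretch of 20 bases with a probe under another name; the other RNF probes share none. The values of 1 RNF gene are not reported here, though it is in the counts over all RNF genes. The authors' table of normalized values was not used.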

Additional observations from a re-analysis of the deposited data

Results flagged for a closer look

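In 4 of the 49 RNF genes, 1 array stood far from the other 3 by Dixon's criterion at 95%, which chance alone gives in about 1 of 20 genes (5%). RNF34 was at −0.031 on replicate 1, with the other arrays from −0.74 to −0.69. RNF167, not called, was at −0.11 on replicate 4 and from 0.06 to 0.09 elsewhere. RNF4 was at −0.40 on replicate 2 and from −0.50 to −0.48 on the others, and RNF6 was at −0.30 on replicate 4 and from −0.48 to −0.45 on the others. For RNF4 and RNF6 all arrays were below 0. No RNF gene with a called rise was among them.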

How the results depend on the processing

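Of 16 called RNF genes, RNF114, RNF138, RNF13, RNF19B and RNF103 were called the same way under all 15 alternatives, and no called gene changed sign under any that tested it. The sign could not change under the other tests, which reuse the same ratios, or with flagged spots kept, as 0 lay on RNF probes. Nor could it change with 1 replicate left out, as each called gene had the same sign on all 4 arrays. The call was lost under 7 alternatives for RNF34 and RNF2, 5 for RNF217, 4 for RNF144B, 3 for RNF40 and RNF6, 2 for RNF4 and RNF11, and 1 for RNF24, RNF125 and RNF183. The counts of RNF genes (16, with 9 higher and 7 lower), RNF probes (29) and partner genes (6) moved as follows. With treat there were 9 RNF genes (1 of them lower) and 15 probes. With normexp and loess there were 6 genes (4 higher, 2 lower), 14 probes and a median RNF log2 ratio of 0.0094. With median centring there were 3 lower genes and a median of 0.045. With spike-in scaling there were 40 genes (32 lower), 72 probes, 17 partner genes and a median of −0.50. With both dyes above background on all arrays, which tested 44 RNF genes, 5 were higher and 7 lower, and the median was −0.048. Of all names in that run 25.9% were called. Leaving out 1 replicate gave 15 to 17 RNF genes, 9 to 11 of them higher and 5 to 7 lower, and a median from −0.024 to 0.0086. The methods' t-test called 13 RNF genes after correction and 15 before, and 2754 and 3644 of all names, against 4046 with limma. All names called numbered 1537 with treat, 1800 with normexp and loess and 10336 with spike-in scaling. The causes of these shifts were not tested. Each array gives 1 ratio of both groups, so the ratio pairs the 2 samples of an array and no further paired analysis was possible. The labels number the control alike, so a pairing of cultures is not established. If the control was shared, the 4 ratios are not independent. RNF24, RNF125, RNF144B and the first RNF40 probe passed the filter through the HMB dye. Their dim control channel limits the size of their ratios, and the direction is not independent of the filter.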
